A study of Mus musculus with 4 samples.

Results

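The comparison was Dectin-2 knockout over wild type with both culture types pooled. It took all 4 of the 4 arrays of the series, chosen by genotype label, and set 2 knockout arrays against 2 wild-type arrays. The 4 groups, each with 1 array, combined Kupffer cells that were wild type or Clec4n-/- with a culture that was separate from, or shared with, SL4 cells. Kupffer cells are the resident macrophages of the liver, here sorted as CD45+ CD11b+ F4/80+ cells from female C57BL/6 mice aged 12 weeks. SL4 is a mouse colon carcinoma line of the same strain. Both cell types were cultured in equal number for 8 hours without any added Dectin-2 ligand named in the labels, and in separate culture their RNAs were mixed before the array. Every array therefore held RNA of both cell types, and the deletion was present only in the Kupffer cells, while the SL4 cells came from the same line throughout. In such mixed RNA, fewer cells of a type and less RNA per cell cannot be told apart. Nothing in the labels says how many mice gave the cells of an array.

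Dectin-2, encoded by Clec4n, is a C-type lectin receptor of macrophages and dendritic cells that binds mannose-rich glycans. It signals through the Fc receptor gamma chain, encoded by Fcer1g, to the kinase Syk and on to the complex of Card9, Bcl10 and Malt1, which activates NF-kappaB and the genes of inflammatory cytokines and chemokines. Kupffer cells are known for clearing particles, microbes and damaged cells from the blood that passes through the liver.

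Values are MAS5 signals, a brightness in arbitrary units on a linear scale that can be compared between arrays for 1 probe set but not between probe sets. Ratios are log2 of knockout over wild type. Signals under a floor of 76.1, which is the median signal of the whole table, were first raised to that floor. A gene was read from its brightest probe set, and 10637 genes exceeded the floor on 1 or more arrays. The 4 arrays had median signals of 72.5 to 78.4, and 10117 to 10187 genes lay above the floor in each. Several macrophage markers lay under the floor: Ptprc, Itgam and Adgre1, which encode the CD45, CD11b and F4/80 of the sort, did so in all 4 arrays, as did the Kupffer cell markers Clec4f, Vsig4, Timd4 and Marco. Of 23 pan-macrophage and leukocyte markers on the array, 8 or 9 lay above the floor in each array, with a summed signal of 2039 in wild-type separate, 2296 in knockout separate, 2273 in wild-type co-culture and 2287 in knockout co-culture. Of 21 Kupffer cell identity genes, 8 to 10 lay above the floor in each array, with sums of 4930, 4882, 5883 and 5712 in the same order.

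Clec4n itself was under the floor in every array, so no fold is given. Its brighter probe set read 14.2 in wild-type separate, 8.29 in knockout separate, 17.6 in wild-type co-culture and 8.19 in knockout co-culture. Both knockout readings lay below both wild-type readings. The other probe set read 4.21, 0.629, 7.35 and 3.49 over the same arrays, again with both knockout readings below both wild-type readings. The files do not say which exons were removed or where these probe sets lie, and at this brightness the readings are a weak check of the labels.

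With culture as a block, limma called 0 of 10637 genes (0.0%) at an adjusted p under 0.05, and the lowest adjusted p was 0.697. At an unadjusted p under 0.05 there were 739 genes (6.95%), of which 401 (3.77%) were higher and 338 (3.18%) lower in knockout. The fit had 1 residual degree of freedom per gene, which is the difference between the genotype ratios of the cultures, and the median standard error of a log2 ratio was 0.0963 after moderation. An exact permutation of genotype within culture allows only 4 arrangements, so a single gene cannot reach a two-sided p below 0.5. No gene below is therefore called different, and values are given as measured. The knockout arrays were both brighter or both dimmer than both wild-type arrays for 3202 genes (30.1%).

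The ratios of the cultures, which share no array, were only weakly related. Across the 10637 genes Pearson's r between the separate-culture and the co-culture log2 ratio was 0.10 and Spearman's rho 0.13. This is a description across genes, which are not independent replicates. A limit of 25% was used, meaning that the brighter genotype exceeded the dimmer by at least 25%. In both cultures 126 genes (1.18%) were higher in knockout by that limit and 96 (0.903%) lower. Against these 222 genes (2.09%), 162 genes (1.52%) passed the limit in opposite directions. At 1.5-fold, 19 genes (0.179%) were higher and 7 (0.0658%) lower in both cultures, and 16 (0.15%) had opposite directions. At 2-fold, 9 genes (0.0846%) were higher and 12 (0.113%) lower in separate culture, 15 (0.141%) higher and 10 (0.094%) lower in co-culture, and 0 (0.0%) passed in both. By the smaller absolute log2 ratio, Cpne7, lower in knockout, lay nearest inside the 25% limit at 0.321929, followed by Prelid2 at 0.3221. Nearest outside lay Foxred2 at 0.321888, then Ing3 at 0.3214 and Zfp651 at 0.3211.

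**Figure D1:**
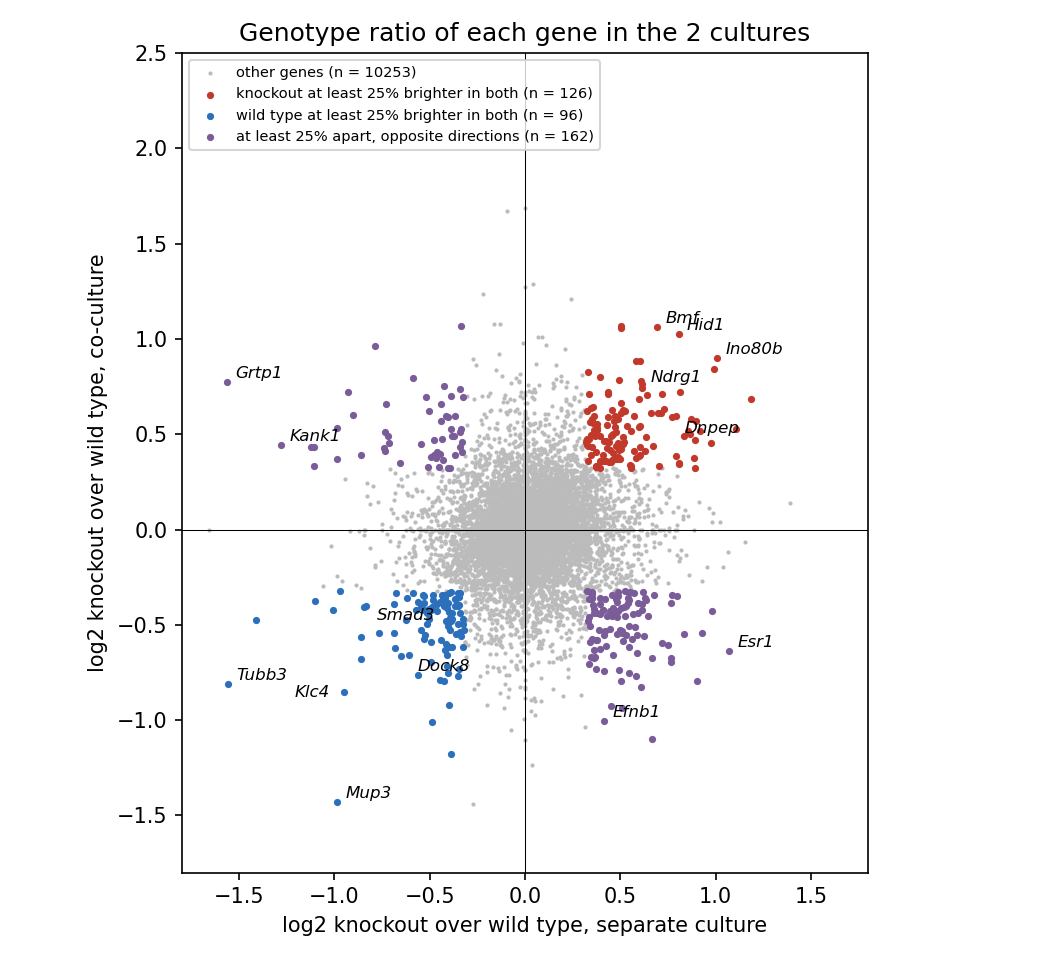
Log2 ratio of knockout over wild type in separate culture (x axis) against co-culture (y axis), 1 point per gene (n = 10637, 1 array per group). The 126 genes higher and 96 lower by at least 25% in both cultures sit in the same-sign corners, and 162 genes sit in the opposite-sign corners.

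Of the 222 genes with the same direction, 142 had no other usable probe set, 63 had a brighter genotype mean under 2 times the floor, and 36 rested on a lower bound in at least 1 culture. For the remaining 80 genes the second brightest probe set repeats the reading with other probes on the same RNA. It pointed the same way in both cultures for 14 of 44 genes higher in knockout (31.8%) and for 5 of 36 genes lower in knockout (13.9%). Among the 80 genes 19 in all (23.8%) agreed in this way. Over all tested genes with a usable second probe set, 1556 of 5584 (27.9%) had the sign of the gene's log2 ratio in the block fit in both cultures. That share takes in genes whose brightest probe set changed sign between cultures, so it is not a like measure of agreement. With second probe sets of at least 2 times the floor, the counts were 8 of 17 (47.1%) for higher genes and 3 of 22 (13.6%) for lower genes. The count over all tested genes, again by the sign in the block fit, was 1298 of 4393 (29.5%).

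Of the 14 genes higher in knockout whose second probe set had the same direction, 11 had a brighter genotype mean of at least 2 times the floor and a symbol that is not provisional. Among these, Ndrg1, Dnpep and Aifm2 had the highest ratios on their brightest probe sets. Ndrg1 encodes a stress- and hypoxia-responsive protein of differentiation. Its signal was 240.2 in wild-type separate, 368 in knockout separate, 268 in wild-type co-culture and 449 in knockout co-culture. Both knockout readings were above both wild-type readings, 1.53-fold in separate culture and 1.67-fold in co-culture, and the block log2 ratio was 0.68 with a standard error of 0.094. The second probe set read 118, 230.1, 190.3 and 253 in the same order, log2 ratios of 0.96 and 0.41, while a dimmer one, near the floor, was higher in knockout in separate culture and lower in co-culture. Dnpep, an aspartyl aminopeptidase of the cytosol, read 2996 and 5195 in the separate cultures and 3094 and 4673 in the co-cultures. Its knockout arrays were 1.73-fold and 1.51-fold brighter, and the second probe set gave 0.43 and 0.22 on the log2 scale. The remaining 3 probe sets of Dnpep gave 0.15 and 0.07, 0.16 and -0.12, and -0.68 and 0.37, so the dimmest pair changed sign between cultures. Aifm2, which encodes the ferroptosis suppressor FSP1, read 138 and 236 in the separate cultures and 201 and 302 in the co-cultures, with a second probe set at 0.24 and 0.27. The brightest probe sets of these 3 genes carry the suffix x_at, which Affymetrix gives to sets whose probes may also bind other transcripts. Read as the median over all probe sets of the gene, their block log2 ratios were lower, at 0.30 for Ndrg1, 0.11 for Dnpep and 0.25 for Aifm2. A probe set under the floor on every array, such as the dimmest of Ndrg1, enters this median at the floor value, with no genotype difference.

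The other 8 genes of this kind had block log2 ratios between 0.40 and 0.54. Tmem242, a transmembrane protein gene, read 393 and 495 in separate culture and 381 and 529 in co-culture, and its second probe set gave 0.43 and 0.33, past the 25% limit in both. Hyls1, a centriole protein needed for cilium formation, read 308 and 461, then 331 and 430.4, with 0.40 and 0.19 on the second probe set. For Fzd3, a Frizzled receptor of Wnt ligands, the signals were 867 and 1274, then 1072 and 1351. All knockout readings of Fzd3 lay above all its wild-type readings, while its second probe set differed little in co-culture, at 0.60 and 0.07. For the rest the second reading was close to 0 in places. Pgpep1, a pyroglutamyl peptidase, Add2, a spectrin-actin linker, Airn, the antisense RNA of the Igf2r locus, and Hinfp, a transcription factor of histone H4 genes, had second probe sets that gave 0.07 or less in at least 1 culture. The second probe set of Mocs1, of molybdenum cofactor synthesis, lay under the floor in both wild-type arrays. With the median over probe sets the block ratio was smaller by over 1.5 times in 8 of the 10 genes that could be read so, among them Fzd3 at 0.17, Mocs1 at 0.24, Pgpep1 at 0.26, Add2 at 0.29 and Hinfp at 0.32. For Add2 the cultures themselves lay apart, with 463 and 636 in separate culture and 242 and 374 in co-culture. Airn is antisense to part of Igf2r, and its probe sets cannot be told here from other transcripts of that locus.

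Lower in knockout with the same direction on the second probe set were 5 genes, Dock8, Zfp276, Smad3, Spaca6 and Pld1. Dock8, an activator of Cdc42 in leukocyte migration, read 227 in wild-type separate, 149 in knockout separate, 191 in wild-type co-culture and 121 in knockout co-culture. Its block log2 ratio was -0.63 with a standard error of 0.089, and the second probe set gave -0.22 and -0.13. Smad3, the receptor-activated transducer of TGF-beta signals, read 763, 577, 1018 and 716 in the same order. Its genotype groups did not overlap, although the knockout co-culture array came close to the wild-type separate array. The block log2 ratio of Smad3 was -0.46 with a standard error of 0.092, and its second probe set gave -0.27 and -0.30. Zfp276, a zinc finger gene, read 321 and 215 in separate culture and 272 and 203 in co-culture. The second probe set of Zfp276 gave -0.46 and -0.38, past the 25% limit in both. Spaca6, known from sperm-egg fusion, was 1.32-fold and 1.35-fold lower on its brightest probe set. Its second read 245 and 71.5 in separate culture, where the knockout reading was under the floor, and 225 and 142 in co-culture, and its dimmest was higher in knockout. Pld1, a phospholipase D, read 183 and 133, then 165 and 126, with -0.09 and -0.14 on the second probe set. The dimmest probe set of Smad3 gave 0.07 and -0.07. The median over probe sets brought the block log2 ratio to -0.14 for Dock8, -0.21 for Zfp276, -0.29 for Smad3 and -0.12 for Pld1, all nearer to 0, and to -1.08 for Spaca6. For Dock8 and Zfp276 that median takes in probe sets under the floor on every array, which enter it with no genotype difference. A floor of 2 times the median left -0.19 for Pld1.

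**Figure D2:**
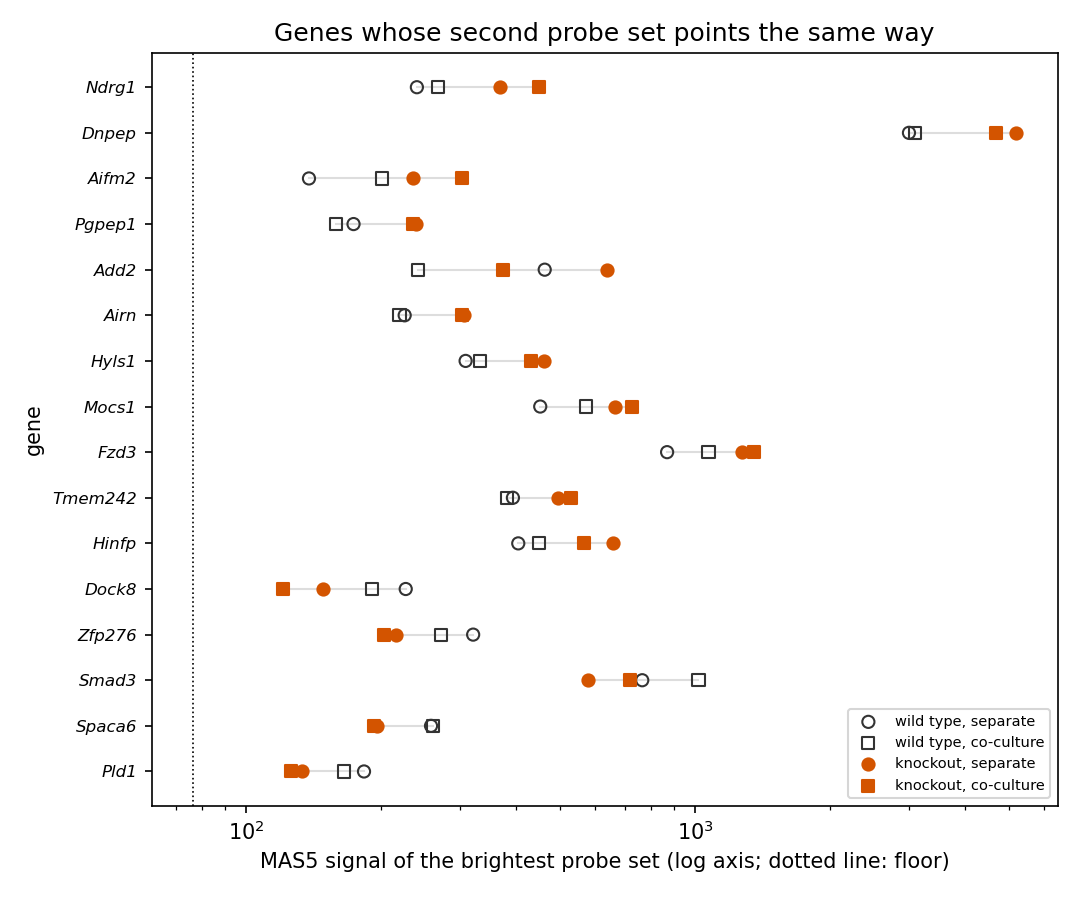
MAS5 signal (log axis) of the brightest probe set in each of the 4 arrays for the 11 genes higher and 5 genes lower in knockout by at least 25% in both cultures whose second probe set had the same direction, with a brighter genotype mean of at least 2 times the floor and a symbol that is not provisional. In each culture the knockout marker lies to the right of wild type for Ndrg1 and Dnpep and to the left for Dock8 and Smad3, and the dotted line is the floor of 76.1.

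Other genes had the same direction in both cultures but no usable second probe set. Ino80b, a subunit of the INO80 chromatin remodeller, read 147 in wild-type separate, 295 in knockout separate, 103 in wild-type co-culture and 193 in knockout co-culture. It was 2.01-fold and 1.87-fold higher, with a block log2 ratio of 0.95, a standard error of 0.093 and the lowest unadjusted limma p of all genes, 0.000431. Hid1, of dense core vesicle formation, read 119 and 208 in separate culture and 108 and 219.7 in co-culture. Bmf, a BH3-only protein that promotes apoptosis, read 107 and 173, then 95.5 and 199.6, on an x_at probe set. Tle6, Lama2 and Usp46os2 had block log2 ratios of 0.74, 0.73 and 0.82, and the last is named as an opposite-strand transcript of Usp46. Bright among the 12 genes named here was Myf5, a myogenic transcription factor. It read 2354 and 3457 in separate culture and 2631 and 3763 in co-culture, 1.47-fold and 1.43-fold higher in knockout, on 1 probe set. Exoc1, an exocyst subunit, read 565 and 787, then 512 and 729. Wdtc1, Nudt12, St6galnac6 and Dnajc25 were higher with block log2 ratios of 0.57, 0.56, 0.50 and 0.48. A floor of 2 times the median lowered 6 of the 12 by over 1.5 times, to 0.49 for Hid1, 0.29 for Bmf, 0.18 for Tle6, 0.48 for Lama2, 0.16 for Usp46os2 and 0.12 for Nudt12. The median over probe sets left 0.25 for Exoc1.

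On the lower side, Tubb3 stood at a block log2 ratio of -1.19 with a standard error of 0.205, and Mup3 was lower by a bound. Mup3, a major urinary protein of hepatocytes, read 268 in wild-type separate, 135 in knockout separate, 205 in wild-type co-culture and 73.8 in knockout co-culture. It was 1.98-fold lower in separate culture and at least 2.69-fold lower in co-culture, where the knockout reading was under the floor. Mup genes are near-identical copies and the probe set is an x_at one, so the member is uncertain. Among 20 hepatocyte markers on the array, 6 were measured, 1 higher and 3 lower in both cultures, and the summed signal was 2046, 2047, 1954 and 1828 over the arrays in the order above. Alb, for albumin, read 347, 334, 344 and 324. Ttr, for transthyretin, read 102, 156, 83.0 and 141, higher in knockout. Its second probe set read 104, 72.8, 73.7 and 81.5, with 1 array under the floor in each culture. That set was lower in knockout in separate culture and higher in co-culture. The third gave 0.15 and 0.04 and the dimmest 0.20 and 0, both with readings under the floor. The part of hepatocyte RNA in the Mup3 reading was not tested.

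Tubb3, the beta-tubulin known from neurons, read 285 and 96.7 in separate culture and 199.5 and 114 in co-culture. Klc4, a kinesin light chain, read 171 and 88.9, then 138 and 74.2, the last under the floor. Inafm2 read 442 and 243, then 525 and 354, and Rpp21, a ribonuclease P subunit, 541 and 366, then 638 and 376. E2f4, a repressor of cell cycle genes, read 420.2 and 261, then 343 and 235. Ech1, an enzyme of fatty acid oxidation, read 979 and 681, then 819 and 558. In each of these genes both knockout readings lay below both wild-type readings. The genes were chosen by their ratios, and 30.1% of all tested genes had no such overlap, in 1 direction or the other. Spon1, Dnal4, Tmem161b, Cerk and Stard9 completed the 12, at -0.55, -0.54, -0.51, -0.49 and -0.62 on the block log2 scale. With the floor of 2 times the median 5 of the 12 were nearer to 0 by over 1.5 times, namely Mup3 at -0.62, Klc4 at -0.09, Tubb3 at -0.65, Spon1 at -0.10 and Stard9 at -0.23, and the median over probe sets put Stard9 at -0.31.

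The agreement between cultures depended on brightness. Genes were split by mean signal into 8 groups of 1329 or 1330 genes. In the dimmest 3 groups r between the cultures was 0.07, 0.06 and 0.07, and these groups held 188 of the 222 genes that passed 25% in the same direction in both. In the brightest group, with mean signals from 3374, r was 0.54 and Spearman's rho 0.51, but only 2 genes passed 25% in the same direction and 0 in opposite directions. The SD of the separate-culture log2 ratio across genes was 0.31 in the dimmest and 0.13 in the brightest group. The share of genes with an unadjusted p under 0.05 was 11.7%, 16.3% and 10.6% in the dimmest 3 groups and 2.26% in the brightest. The fit used 1 prior spread for genes of every brightness.

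**Figure D3:**
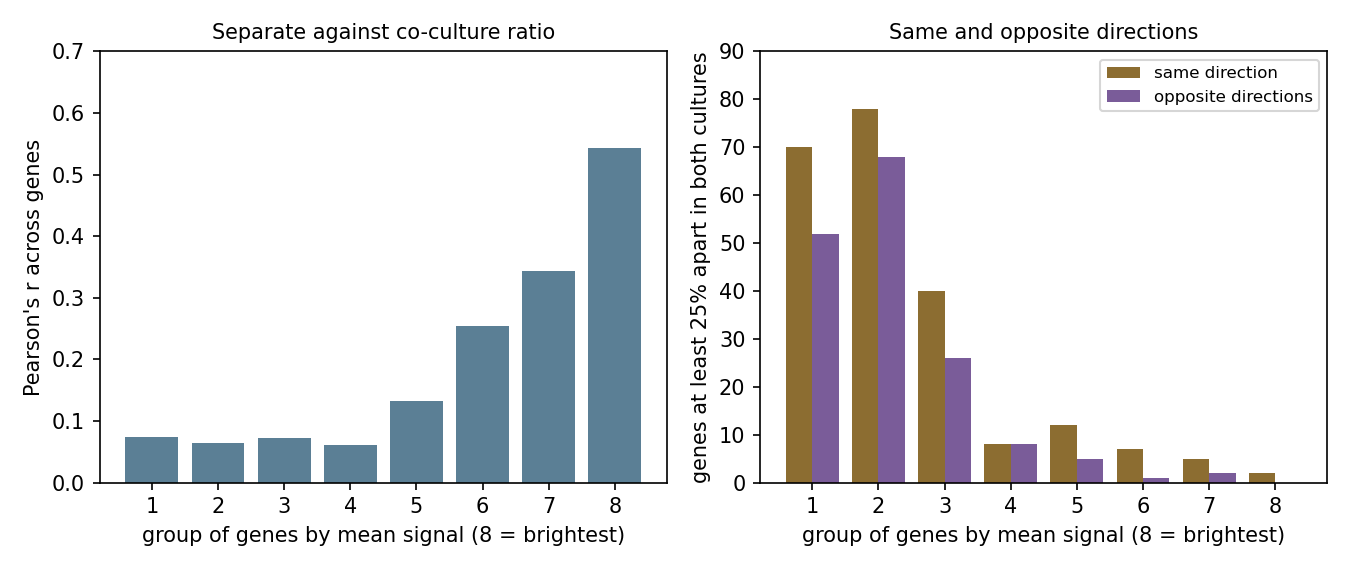
Left, Pearson's r across genes between the separate-culture and co-culture log2 ratios in 8 groups of genes by mean signal; right, genes at least 25% apart in both cultures, in the same or in opposite directions, in the same groups. The correlation goes from 0.07 in the dimmest group to 0.54 in the brightest, while the genes past 25% in the same direction go from 70 to 2.

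In the brightest group 608 genes were lower and 229 higher in knockout in both cultures, with median log2 ratios of -0.09 in separate culture and -0.0030 in co-culture. The lean was not kept under another scaling: after quantile normalization of the 4 arrays 448 genes were lower and 452 higher in both, and r was 0.49. Of its 12 leading genes by the smaller of their absolute ratios, chosen after their values were seen, 9 were lower and 3 higher. Tuba1a, an alpha-tubulin, read 13795 in wild-type separate, 10845 in knockout separate, 15166 in wild-type co-culture and 11855 in knockout co-culture, a block log2 ratio of -0.35 that quantile normalization left at -0.17. Eif3a, a translation initiation factor subunit, read 10346, 8184, 11621 and 9422, at -0.32 and, after quantile normalization, -0.21. Its second probe set gave -0.17 and -0.07. Hint1, a histidine triad hydrolase, and Ncl, the nucleolar protein nucleolin, stood at -0.29 and -0.27, with second probe sets at -0.08 and -0.04 for Hint1 and at -0.16 and -0.06 for Ncl. Quantile normalization left Hint1 at -0.24 and Ncl at -0.10. For other leading genes the second probe set did not share the direction. It gave 0.11 and 0.0081 for Uqcrc2, a complex III subunit at -0.31, and -0.26 and -0.0017 for Speg, a muscle kinase at 0.29. Ywhaz, a 14-3-3 protein at -0.29, had a second probe set at -0.19 and 0.01. H2ac19, a histone gene with near-identical copies, was at -0.37. Map3k12, a kinase upstream of JNK, was higher, at 5164 and 6463 in separate culture and 5475 and 6550 in co-culture, with a second probe set at 0.14 and 0.16.

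Malat1, a long nuclear RNA, and Hmgn1 are also named after their values were seen, as bright genes with several probe sets. Malat1 had 7 of them. The brightest read 14571 in wild-type separate, 11824 in knockout separate, 15472 in wild-type co-culture and 13331 in knockout co-culture. Its block log2 ratio of -0.26 became -0.06 after quantile normalization. The second gave -0.23 and -0.27 in separate culture and co-culture, the next 4 were lower in both cultures by smaller ratios, and the last gave -0.03 and 0.18. Hmgn1, a nucleosome-binding protein, was at -0.27 with a second probe set at -0.44 and -0.27, but the next gave -0.0054 and 0.07 and quantile normalization left -0.01 on the brightest.

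**Figure D4:**
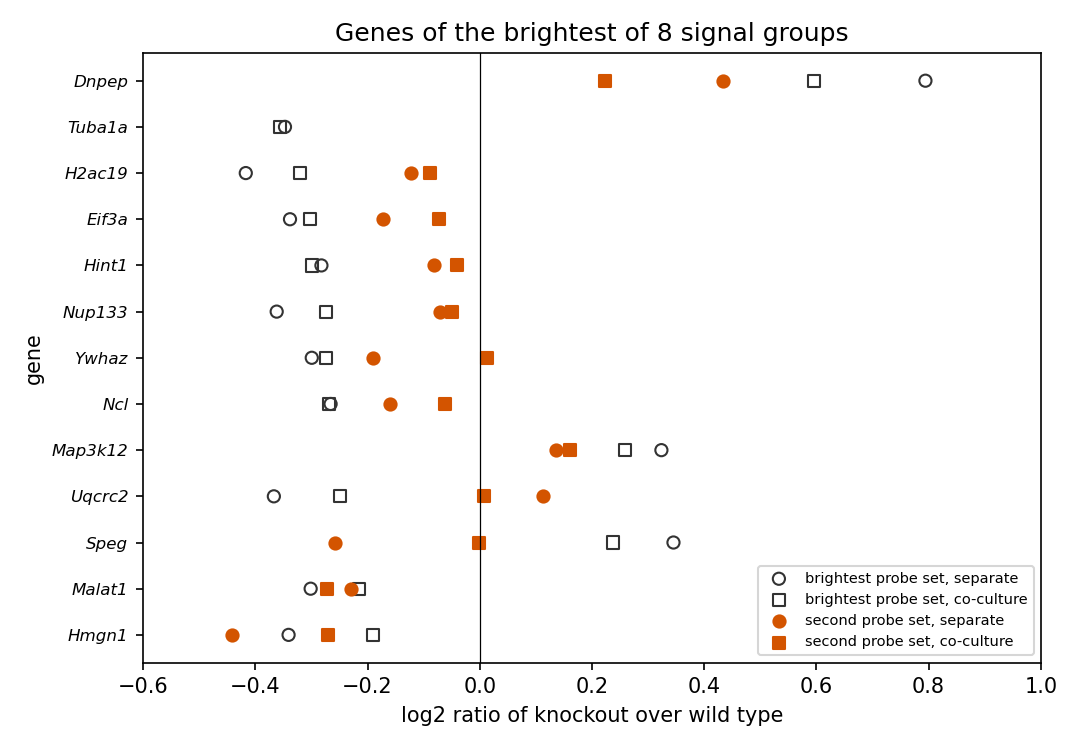
Log2 ratio of knockout over wild type in separate culture (circles) and co-culture (squares) for leading genes of the brightest of 8 signal groups and for Malat1 and Hmgn1, with the brightest probe set as open and the second as filled markers (Tuba1a had no usable second). The brightest probe sets lie right of 0 for Dnpep, Map3k12 and Speg and left of 0 for the other genes shown, and second probe sets lie closer to 0 for Eif3a, Hint1 and Ncl.

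The receptor's own pathway showed no shared direction. Of 18 genes of Dectin-2 signalling on the array, 12 were measured, 2 higher and 3 lower in both cultures, against 26.8% and 26.4% of all genes tested, and the median block log2 ratio was -0.03 against 0.00 for all genes. Fcer1g, the signalling chain, read 99.5 in wild-type separate, 112 in knockout separate, 79.1 in wild-type co-culture and 144 in knockout co-culture. Its knockout arrays were both brighter, with a block log2 ratio of 0.51. Syk lay under the floor in all 4 arrays, with 39.0, 20.1, 33.6 and 24.1. Bcl10 read 2717, 2925, 3617 and 3376, higher in knockout in separate culture and lower in co-culture. Traf6, a ubiquitin ligase of the same route, read 693 and 424 in separate culture but 557 and 695 in co-culture, so its genotype ratio changed sign between cultures. Pik3cd, the delta catalytic subunit of PI3-kinase, was lower in both, at 137 and 94.7, then 225 and 177. The block log2 ratio of Pik3cd was -0.44, and its second probe set lay under the floor in separate culture and gave -0.24 in co-culture. Clec4d, the gene of the related receptor Dectin-3, read 563, 526, 755 and 775.

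Genes of NF-kappaB and its targets are the transcriptional readout of that pathway. Among tested genes with a RefSeq promoter of 300 bases, 250 before and 50 after the start, the kappaB motif, GGGA and TTCC with any 2 bases between them, was found on either strand in 144 of 8693 (1.66%). It was in 0 of 103 promoters of genes higher in knockout in both cultures by 25%, in 2 of 76 of those lower, in 2 of 13 of the NF-kappaB list and in 1 of 4 of the chemokine list. A match is a description of the letters and not a site of binding. The stretches holding the motif in Cxcl1 and Nfkbia, in capitals, are shown because these are the chemokine and the inhibitor whose values follow. They are from GRCm38.p6, 5′ to 3′ on the strand of the gene, chr5:90891149-90891208 on the plus strand for Cxcl1, where a pair of matches overlap, and chr12:55492648-55492701 on the minus strand for Nfkbia.
Cxcl1: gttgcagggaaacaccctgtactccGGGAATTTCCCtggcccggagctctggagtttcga
Nfkbia: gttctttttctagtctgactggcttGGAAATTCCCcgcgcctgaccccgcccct

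Cxcl1, a neutrophil-attracting chemokine, read 321 in wild-type separate, 326 in knockout separate, 12375 in wild-type co-culture and 10366 in knockout co-culture. It was far brighter in both co-culture arrays. The genotype ratio was 0.02 on the log2 scale in separate culture and -0.26 in co-culture, a block value of -0.12 with a standard error of 0.112. The second probe set of Cxcl1 gave 0.38 and -0.17 and its dimmest -0.12 and 0.17, so the sign in each culture differed between probe sets. Nfkbia, the NF-kappaB inhibitor that is itself a target, read 2041, 1966, 6938 and 7114, a block log2 ratio of -0.0091. From the second to the dimmest, its other probe sets gave 0.02 and -0.05, 0.26 and 0.21, 0.33 and -0.04, and -0.14 and 0.07. Nfkb2 was lower in knockout, at 281 and 210, then 577 and 522, and Tnfaip3, the feedback inhibitor A20, was higher, at 72.8 and 93.3, then 341 and 412. Of 17 measured NF-kappaB genes 3 were higher and 4 lower in both cultures, with a median of -0.01. Of 25 chemokines 6 were measured, 1 higher and 1 lower in both. Of 27 cytokines and growth factors 11 were measured, 2 higher and 2 lower in both. Tgfb1 was lower in both, at 209 and 158, then 513 and 437, a block log2 ratio of -0.32, and Tgfb2 was at -0.30.

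Macrophage markers gave mixed directions. Of 9 measured pan-macrophage and leukocyte genes 4 were higher and 2 lower in both cultures. Cd68, a lysosomal glycoprotein of macrophages, read 92.2 in wild-type separate, 143 in knockout separate, 132 in wild-type co-culture and 175 in knockout co-culture. Tyrobp, the adaptor DAP12, read 76.4, 95.7, 102 and 157. For both genes the knockout array was the brighter of each culture, with block log2 ratios of 0.52 and 0.47. The lysozyme genes Lyz1 and Lyz2, similar copies that probes may share, were lower, with 122 and 97.6, then 121 and 97.0 for Lyz1, and block log2 ratios of -0.32 and -0.40. C1qb, a complement subunit made by Kupffer cells, read 100.3 and 147 in separate culture and 264 and 211 in co-culture, so its ratio had opposite signs. Of 10 measured Kupffer cell identity genes 1 was higher and 1 lower in both. H2-Aa, an MHC class II chain, read 14.8 and 44.2 in separate culture, both under the floor, and 164 and 56.0 in co-culture, at least 2.15-fold lower in knockout there, while Cd74, the invariant chain, read 81.2 and 122, then 110 and 131.

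Markers of other cells that a liver preparation could carry were measured in part. All 11 neutrophil and all 9 B cell markers on the array lay under the floor in every array, and 2 of 13 T and NK cell markers and 2 of 9 dendritic cell markers were measured. Prf1, the perforin gene of the T and NK list, read 839, 943, 832 and 816 in the order above. Of 18 liver endothelial and stellate markers 7 were measured, 3 higher and 1 lower in both cultures, and their summed signal was 6323, 6167, 5629 and 5695. The endothelial marker Stab2 lay under the floor in all arrays. Pdgfrb, a PDGF receptor of stellate cells and fibroblasts, read 152 and 187 in separate culture and 82.0 and 144 in co-culture, a block log2 ratio of 0.55. Des, the filament protein desmin, read 2235 and 1778, then 1173 and 1086, while Reln, Ecm1 and Rgs5 also exceeded the floor on every array. Of the 22 epithelial and colon carcinoma markers 4 were measured. Spint1 read 750, 667, 776 and 869, Epcam 83.9, 124, 103 and 43.9, and Cldn3 56.5, 88.7, 90.6 and 109. Ocln exceeded the floor only in wild-type separate, at 76.6. Krt8, Krt18 and Cdh1, which define epithelial cells, lay under the floor in all arrays. The SL4 line is labelled as colon carcinoma. Of 21 mesenchymal and matrix genes 15 were measured, 2 higher and 5 lower in both cultures and a median of -0.02. Acta2, smooth muscle actin, read 448 and 346, then 269 and 231, and Tagln, a smooth muscle actin-binding protein, 237 and 197, then 179 and 144.

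The remaining lists had median block log2 ratios from -0.11 to 0.11, against 0.00 for all genes. Of all genes tested, 26.8% were higher and 26.4% lower in both cultures. Killing and cell death genes had the highest median, 0.11, with 3 of 7 higher and 2 lower in both. Sterol synthesis and interferon-stimulated genes each had a median of 0.09. Cell cycle genes had a median block log2 ratio of -0.03, with 1 of 23 higher and 9 lower in both cultures. Bub1b, a spindle checkpoint kinase, read 1497 and 1140, then 1499 and 1087, but its second probe set gave -0.11 and 0.03. Phagocytosis and lysosome genes had a median of -0.02, 3 of 17 higher and 8 lower, and Gas6, a bridging ligand for apoptotic cells, read 97.7 and 159, then 118 and 138. Immediate early genes had 10 of 24 higher and 5 lower in both, and interferon-stimulated genes 1 of 7 higher and 0 lower. Among 23 cilium genes 6 were higher and 3 lower in both. Bbs1, of the BBSome, read 83.4 and 118, then 88.0 and 185, while Ift172, of intraflagellar transport, read 137 and 105, then 181 and 80.0. Sterol synthesis genes had 6 of 17 higher and 3 lower, and stress genes of the unfolded protein response 9 of 20 higher and 4 lower. Housekeeping genes had the lowest median among lists with at least 5 members, -0.11, with 2 of 15 higher and 9 lower. It was -0.02 after quantile normalization. Heat shock genes followed at -0.06.

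**Figure D5:**
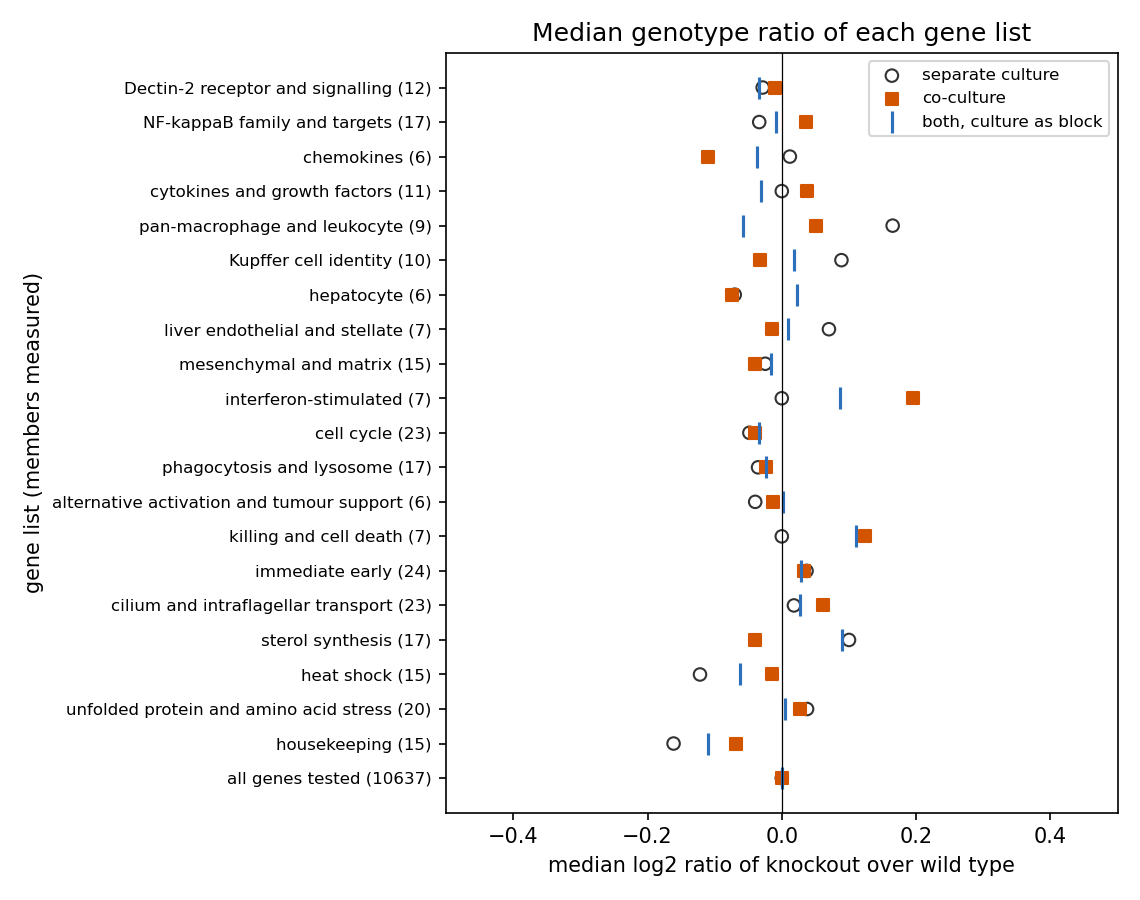
Median log2 ratio of knockout over wild type of each gene list with at least 5 measured members, in separate culture (open circles), in co-culture (squares) and with culture as a block (bars); the number of members measured is in brackets. Block medians lie between -0.11 for housekeeping genes and 0.11 for killing and cell death genes.

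Genes beside Clec4n on its chromosome, which a deleted locus can carry along from the strain it was made in, were looked at in the order of the RefSeq gene table. Of the 40 nearest genes on the array, 20 on each side, 18 were measured. In both cultures 3 were higher and 6 lower, against 26.8% and 26.4% of all genes tested. Past 25% in the same direction in both were 0, against 2.09% of all. Their block log2 ratios ran from -0.55 to 0.31, with a median of -0.01. At either end were Eno2, an enolase, at 248 and 207 in separate culture and 284 and 159 in co-culture, and Slc2a3, a glucose transporter, at 310 and 369, then 141 and 182.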

How the data were processed

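The 4 arrays held RNA of Kupffer and SL4 cells, made into cDNA from 20 ng of total RNA, according to the protocols in the labels. The deposited table gives 1 linear intensity per probe set and array, which the authors made with Affymetrix Expression Console 1.4 and MAS5, per the submitters' processing notes. After trimming 2% of each tail the mean was about 497 in every array, so a shift in the RNA content of the cells as a whole is not visible.

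Of 45037 probe sets, 34945 had 1 gene symbol, 932 several and 9160 were not listed in the platform annotation, and names were looked up through Entrez numbers in RefSeq GRCm38.p6 (34741 matched). They covered 18193 genes. The brightest probe set stood for a gene, signals were floored at 76.1 and log2-transformed, and no further scaling was applied. A ratio with the dimmer array at or under the floor is a lower bound, written "at least", and none is given with both there. limma 3.58.1 in R 4.3.3 fitted genotype with culture as a block over the 10637 genes (lmFit and eBayes, Benjamini-Hochberg adjustment). With 1 array per group the residual holds true culture dependence as well as noise, and no mean and SD can be given. Precision is limited by how few arrays there are. P-values measure only the spread between these arrays. Promoters are from the RefSeq table of GRCm38.p6.

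Genes named are those at least 25% apart in the same direction in both cultures whose brighter genotype mean was at least 2 times the floor and whose symbol is not provisional, at most 12 a direction by the smaller absolute ratio, with and without a second probe set. Also named are list members, neighbours of Clec4n, and genes 2-fold in 1 culture and 25% the other way in the other. The members and lists were chosen with earlier results of these data known. Alternatives were the floor, the scaling, the probe set rule, the filter, the variance prior, the block and the fold limit.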

Additional observations from a re-analysis of the deposited data

Results flagged for a closer look

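In 9 genes the knockout arrays stood 2-fold from wild type in 1 culture and at least 25% the other way in the other, so the genotype ratios of the cultures had opposite signs. With 1 array per group these differences were not tested, and the genes are named because of that difference. The value given for each is its log2 ratio in co-culture minus that in separate culture.

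Grtp1 differed by 2.335, with signals of 383 in wild-type separate, 129.6 in knockout separate, 317 in wild-type co-culture and 541 in knockout co-culture, on an x_at probe set. Its second probe set also pointed down in separate culture and up in co-culture, at -0.58 and 0.32. Ptges3l differed by 1.554, at 742 and 341 in separate culture and 238 and 321 in co-culture, and its second probe set gave -0.55 and 0.28. Esr1, the estrogen receptor alpha gene, differed by -1.709, at 82.0 and 172, then 183 and 118, with a second probe set at 0.55 or more, since its wild-type reading was under the floor, and at -0.15. Efnb1, a ligand of Eph receptors, differed by -1.421, at 153 and 204, then 247 and 123, with a second probe set whose wild-type separate reading was also under the floor and which gave -0.24 in co-culture. In these 4 genes the second probe set had the same pair of signs as the brightest.

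The other 5 genes had no usable second probe set. Rhbdl1, a rhomboid protease gene, differed by -1.77, at 92.3 and 147, then 198 and 92.4. Kank1 differed by 1.722, at 185 and 61.0, then 59.0 and 103, and Paqr8 by 1.541, at 199 and 92.2, then 76.6 and 103. Vsig10 differed by 1.439, at 274 and 128, then 147 and 185, and 1700030J22Rik by 1.404, at 96.0 and 59.6, then 61.6 and 159.5. In Kank1 and 1700030J22Rik 2 of the 4 readings lay under the floor of 76.1, so these values are lower bounds.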

How the results depend on the processing

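The block fit called 0 genes under 10 of 12 alternatives. With a common median for all arrays limma called 1, Mup3 (adjusted p 0.0261), whose co-culture ratio is a bound, and with an intensity trend in the prior 3, Dnpep (0.00489), Myf5 (0.0126) and Aagab (0.0421), the last named after its values were seen. Unadjusted limma p under 0.05 was met by 739 of 10637 genes as reported and by 387 of 10637 without the block. With the intensity trend it was met by 1009 of 10637, and without the filter by 1135 of a larger set of 18193. The share of those higher in knockout was 54.3% as reported and 43.4% with a common median. Genes past the limit in both cultures, higher, lower and opposite, numbered 209, 145 and 286 with no floor, 59, 57 and 74 with a floor of 2 times the median, 30, 35 and 30 with a mean of at least 4 times the floor, 19, 7 and 16 at 1.5-fold, and 775, 651 and 952 at 1.1-fold. These changes follow from the limit or from which dim genes can pass. Of 88 genes examined 7 reversed. Esr1 was -0.043 and C1qb -0.16 with the floor of 2 times the median, Bcl10 -0.021 with a common median and H2-Aa 0.016 with no floor. With the median over probe sets C1qb was -0.10, Bcl10 -0.17, Nfkbia 0.24, Cxcl1 0.10 and Nup133 0.20. For Cxcl1 and Nfkbia this is the reading of the middle probe set. In separate culture and co-culture that set gave 0.38 and -0.17 for Cxcl1 and 0.26 and 0.21 for Nfkbia. The cause of the other reversals was not tested. None of the 40 named genes that shared a direction reversed. The median over probe sets, however, brought 12 of the 15 with an agreeing second probe set that could be read so nearer to 0 by over 1.5 times. A floor of 2 times the median did so for 11 of the 24 without a usable second probe set. The median over probe sets also takes in sets under the floor on every array, which enter it with no genotype difference. Knockout and wild type were paired by culture in the fit; leaving out 1 array leaves no residual degree of freedom, so the values of each culture alone stand in its place. Low signal limits the dim genes: 398 of 10637 tested genes could not have reached the limit in either culture. Genes too dim in only 1 culture could not pass it in both, and that count leaves them out.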

Other observations

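Among genes that passed the 25% limit in the same direction in both cultures, the second probe set went the other way in both for 18 of 80 (22.5%). Over all tested genes with a usable second probe set, 1344 of 5584 (24.1%) had it opposite to the sign of the block log2 ratio in both cultures. That share takes in genes whose brightest probe set changed sign between cultures, so the shares are not like measures. The examples below were chosen after their values were seen. Gadd45b, a stress-induced regulator of MAP kinase signalling, read 221 in wild-type separate, 83.0 in knockout separate, 300.2 in wild-type co-culture and 216 in knockout co-culture on its brightest probe set. That is a block log2 ratio of -0.94, while its second probe set gave 0.06 and 0.23. Kcnq5, a potassium channel subunit, read 490 and 270 in separate culture and 550.2 and 343 in co-culture, a block log2 ratio of -0.77, with 0.15 and 0.06 on the second.

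Genes that passed the limit in opposite directions had 49 usable second probe sets. Of these, 10 (20.4%) had the sign of the block log2 ratio in both cultures, and 14 (28.6%) had the other sign in both. These sets therefore did not change sign between cultures as the brightest did. The remaining 25 were mixed, as in Grtp1, Ptges3l, Esr1 and Efnb1. How many of the 25 followed the brightest in both cultures was not counted.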
